A study of Rattus norvegicus with 40 samples.

Results

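The gene expression of normal rat right ventricle was set against that of a pooled reference RNA from cultured rat cells, with both RNAs hybridised to the same array. The arrays were chosen by sample title, so no measured value entered the choice, and they were 8 of the 40 arrays of the series, from 6 of its 24 animals. The 6 animals were male Sprague-Dawley rats of the Normal group, which received neither SU5416 nor hypoxia nor carvedilol. The design text gives a body weight of 200 g for the rats it describes, and the labels give no age. Ventricle RNA carried the dye Cy5, and the Cy3 channel of every array held Stratagene Universal Rat Reference RNA, a commercial pool from 14 rat cell lines. Animal 1 was hybridised on 3 arrays, which were averaged, and each of the other 5 animals on 1 array. The value throughout is the log2 ratio of ventricle over reference, so that 0 is equal signal, 1 is 2-fold more signal from the ventricle, and negative values are more signal from the reference. The other groups of the series, used in 1 paragraph only, were Hypoxia (10% oxygen for 4 weeks), SuHx (20 mg/kg SU5416, the same hypoxia and then 2 weeks at sea level) and SuHx with carvedilol (the same model, with carvedilol at 15 mg/kg a day, over 4 weeks that began on return to room air), with 6 animals each.

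The right ventricle pumps blood through the lungs, and its mass is made up mainly of cardiomyocytes, which do not divide in the adult and are filled with sarcomeres and mitochondria. It also holds capillary endothelium, pericytes, fibroblasts and macrophages. Cultured cell lines divide, build ribosomes, nucleotides and sterols for growth, and lack most products of differentiated muscle. A pooled cell line RNA of this kind is used on arrays as a common denominator, and its ratio to a tissue describes what that tissue holds in excess or in deficit of proliferating cells. The reference was 1 RNA with no spread of its own and the dyes were never swapped, so a difference in RNA and a dye effect of a probe cannot be told apart in any ratio below. A ratio ranks no gene's abundance against another's, since a gene that is scarce in the ventricle and scarcer in the cell lines also has a high ratio.

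Of 14861 genes on the array, 12716 had values in at least 4 of the 6 animals and were tested, 8320 of them with 1 probe and 4396 with several. Between 17.6% and 39.3% of the spots of an array were empty, and the first array of animal 1 and the array of animal 2 had the most. The correlation of log2 ratios over 12467 probes was 0.82 to 0.91 among the 3 arrays of animal 1 and 0.70 to 0.92 among arrays of different animals, with a median of 0.83 over the 25 pairs from different animals. Animal 6 lay far from the other 5 in 3.48% of the genes with 6 values, against 0.388% to 2.25% for each of the other animals. The E1A control probes, which are printed for spiked-in transcripts, stood between 0.80 and 2.89 above 0 in the median, highest in animals 3 and 4. The median standard error (SE) of a gene's mean log2 ratio was 0.21 and the median SD between animals was 0.53. In bulk tissue, fewer cells of a type and less RNA per cell cannot be told apart.

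The ventricle and the reference differed at 6839 genes by limma's test against 0, at an adjusted p under 0.05. Of all tested genes, 3216 (25.3%) were above the reference and 3623 (28.5%) below it. A stricter call was used from here on: limma's treat test, at an adjusted p under 0.05, of a ratio beyond 2-fold. By that call 1129 genes (8.88% of those tested) were over 2-fold above the reference and 983 (7.73%) over 2-fold below it. The counts of list members below are to be read beside these shares. Median folds among the called genes were 6.33 above and 4.95 below. The tail of large ratios was longer on the ventricle side, where 198 genes exceeded 16-fold, against 45 genes on the reference side. The median ratio of all tested genes was -0.07, and the zero itself was set by the authors' within-array lowess. With the arrays aligned on the control probes instead, the genes over 2-fold above numbered 620, and with the arrays shifted to the housekeeping list the genes over 2-fold below numbered 637. The share of 2-fold calls that lay above the reference was 53.5% as deposited, 69.7% after the housekeeping shift and 40.9% after the control alignment, which moved the median of all genes to 0.27 and -0.41. Sizes near 2-fold are therefore relative to the authors' zero.

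The genes with the largest ratios included muscle proteins, a globin, and receptors and scaffolds better known from other organs. Dlgap3, a scaffold of postsynaptic densities in neurons, ranged over the 6 animals from 7.08 to 8.58 with a median of 7.82, and had the highest mean of all tested genes, 7.83 ± 0.21 (SE, n = 6). Lmod2, leiomodin 2, which lengthens thin filaments in heart and skeletal muscle, ranged from 6.65 to 9.30 with a median of 7.53. Animal 6 held that highest value, and the other 5 animals lay between 6.65 and 7.62. Abra, an actin-binding protein of striated muscle, had a mean of 6.61 ± 0.19. Xirp2, which binds actin at the intercalated disc, reached 6.61 ± 0.21, and Smpx, a small protein of the costamere, 6.39 ± 0.20. Hbb, a beta globin and thus a marker of blood left in the tissue, ranged from 6.23 to 7.76 with a median of 6.91. Gcgr, the glucagon receptor, ranged from 5.71 to 7.60 with a median of 6.44. Myoc, myocilin, known from the trabecular meshwork of the eye, varied most of these, from 5.13 to 8.98 with a median of 6.45. The other 4 of the 12 highest were Pianp, a neural ligand of the receptor Pilra, at 7.27, Mtus2, a microtubule-binding protein, at 6.78, Spink8, a protease inhibitor, at 6.73, and Asb14, an ankyrin repeat protein, at 6.37. The lowest value of any animal among the 12 genes was the 5.13 of Myoc. Each of them rests on 1 probe except Mtus2, which has 2.

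At the other end stood genes of cell division, inflammation and detoxification. Sult1c2, a sulfotransferase, had the lowest mean among called genes with an assigned name and 6 values below 0, with animals from -7.01 to -3.27, a median of -5.20 and a mean of -5.08 ± 0.44. Ect2, which is needed for the furrow of a dividing cell, ranged from -5.69 to -4.07 with a median of -4.88. Il6, interleukin 6, lay within a narrow range, from -4.96 to -4.37 with a median of -4.66, and Ptgs2, the inducible cyclooxygenase, did likewise, from -4.83 to -4.31 with a median of -4.48. The mean of Mmp13, a collagenase, was -4.89, but its animals ran from -8.97 to -3.39 because animal 2 stood far below the others, which lay between -4.56 and -3.39. The remaining 7 of the 12 lowest were the kinetochore gene Kntc1 (-4.84), the spindle pole gene Aspm (-4.67), the cationic amino acid transporter Slc7a3 (-4.54), the spindle checkpoint kinase Ttk (-4.50), the mitotic kinesin Kif20b (-4.47), Slfn4 of the Schlafen family (-4.45) and the sulfotransferase Sult1b1 (-4.44). The 12 genes at either end were chosen among those with all 6 animals on one side of 0.

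**Figure D1:**
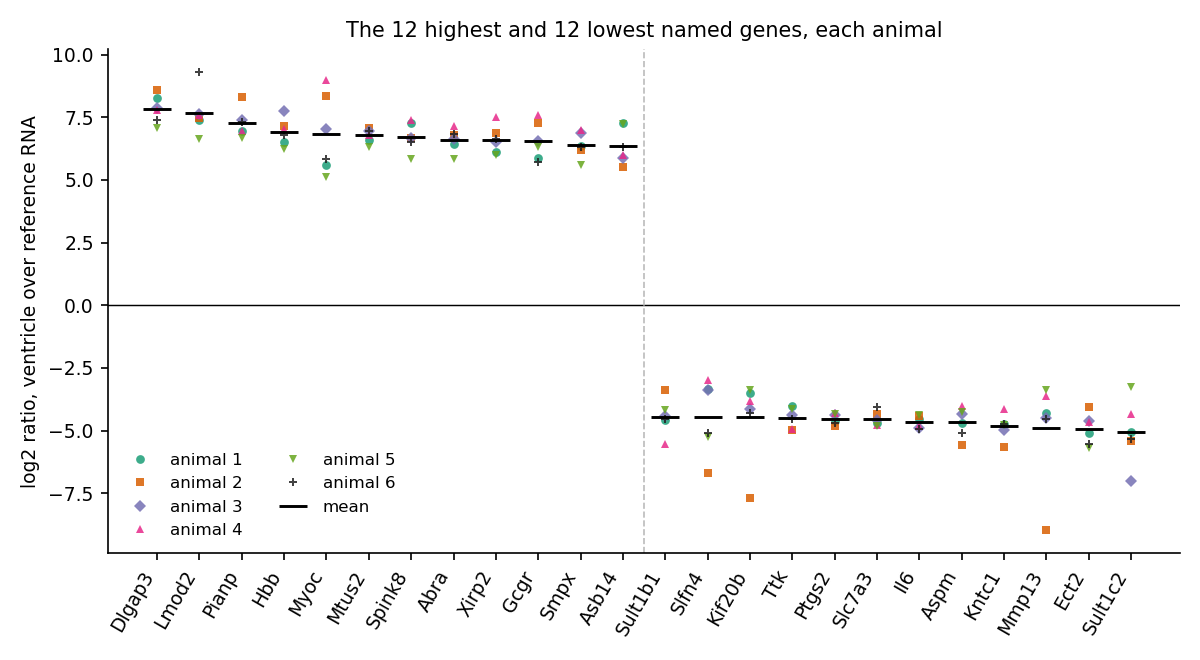
Log2 ratio of ventricle over reference RNA (vertical axis) for the 12 named genes with the highest and the 12 with the lowest mean, 1 symbol for each of the 6 animals and a bar for the mean. The genes were chosen with all animals on one side of 0, and single animals stand apart for Lmod2 (animal 6), Kif20b and Mmp13 (animal 2).

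Genes of the sarcomere, the contractile unit of striated muscle, stood together far above the reference. All 10 tested members of the thick filament list, 9 of 13 of the thin filament and 17 of 18 of the Z-disc and costamere were over 2-fold above it, and none was over 2-fold below, where 8.88% and 7.73% of all genes were called. The median log2 ratios of these lists were 4.36, 3.74 and 3.88, beside -0.07 for all tested genes. In the thick filament, Myl2, the ventricular regulatory light chain, ranged from 4.82 to 8.38 with a median of 4.96. The highest value was again that of animal 6, and the other 5 lay between 4.82 and 5.60. Mybpc3, the cardiac myosin binding protein C, ranged from 4.69 to 5.41 with a median of 4.83. The 2 cardiac myosin heavy chains were both above the reference: Myh6, the fast alpha form that dominates the adult rat ventricle, had animals from 3.84 to 5.32 with a median of 4.46, and Myh7, the slow beta form, from 1.87 to 3.10 with a median of 2.72. The 2 probes of Myh6 had means of 3.06 and 5.94, the lower of which lies within the range of Myh7, and ratios of different probes do not rank the levels of the genes. By limma's treat test the adjusted p was 1.38e-05 for Myh6 and 0.000544 for Myh7. In the thin filament, Tnni3, cardiac troponin I, averaged 4.77 ± 0.19, Tnnc1, troponin C, 4.72 ± 0.20, Tnnt2, cardiac troponin T, 4.34 ± 0.16, and Actc1, cardiac actin, 3.75 ± 0.15. Tmod1, which caps the thin filament, averaged 5.96 ± 0.31. Tpm1, alpha tropomyosin, averaged 2.19, but its 5 probes had means from -1.48 to 3.85, and the probe with values on most arrays gave -1.48. At the Z-disc, Csrp3, muscle LIM protein, averaged 5.17 ± 0.22, Actn2, the sarcomeric alpha actinin, 4.85 ± 0.23 and Des, desmin of the muscle intermediate filaments, 4.65 ± 0.20.

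The letters before the start of these genes were searched for elements of muscle transcription factors. A MEF2 site, the A/T-rich element bound by myocyte enhancer factors, was searched for in the 250 bases before the start of transcription, on both strands. It was found in 5 of the 33 promoters of sarcomere list genes that could be matched in RefSeq's table (build GRCr8), which is 15.2%, in 1.77% of the promoters of genes over 2-fold above the reference and in 0.447% of all 10509 matched promoters of tested genes. A CArG box, bound by serum response factor, was found in 18.2%, 1.88% and 1.17% of the same sets. Among genes over 2-fold below the reference its share was 1.78%, near that of the genes above. The promoters of 3 named sarcomere genes are shown because each holds 1 MEF2 match, written in capitals, and they run 5′ to 3′ on the strand of the gene, up to the last base before the start. Mybpc3 lies at chr3:97550811-97551060 on the plus strand, Xirp2 at chr3:72533936-72534185 on the plus strand and Smpx at chrX:41107138-41107387 on the minus strand.
Mybpc3: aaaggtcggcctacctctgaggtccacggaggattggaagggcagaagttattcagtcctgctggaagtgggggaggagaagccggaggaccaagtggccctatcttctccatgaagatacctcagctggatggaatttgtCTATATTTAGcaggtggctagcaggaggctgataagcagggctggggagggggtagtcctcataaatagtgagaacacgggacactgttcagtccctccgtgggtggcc
Xirp2: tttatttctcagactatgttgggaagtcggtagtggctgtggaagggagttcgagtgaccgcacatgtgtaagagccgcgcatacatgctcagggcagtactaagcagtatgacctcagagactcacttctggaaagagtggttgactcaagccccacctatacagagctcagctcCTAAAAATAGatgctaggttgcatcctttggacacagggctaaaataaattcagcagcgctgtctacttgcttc
Smpx: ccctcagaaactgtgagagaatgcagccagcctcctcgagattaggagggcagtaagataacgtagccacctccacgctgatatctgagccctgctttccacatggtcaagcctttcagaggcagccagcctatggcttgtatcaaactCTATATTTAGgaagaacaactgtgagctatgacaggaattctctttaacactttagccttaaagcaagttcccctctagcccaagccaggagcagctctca
A match is a run of letters and does not show that a factor binds there.

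Excitation and calcium handling followed the sarcomere. Of 20 tested genes of calcium release and transport, 15 were over 2-fold above the reference and none below, beside 8.88% and 7.73% of all tested genes. The list median was 3.02. Ryr2, the calcium release channel of the sarcoplasmic reticulum, ranged from 4.18 to 5.93 with a median of 5.59, and animal 4 was the low one. Pln, phospholamban, which restrains the calcium pump, averaged 5.24 ± 0.29, and Casq2, the cardiac calcium buffer calsequestrin, 3.94 ± 0.13. The pump itself, Atp2a2, averaged 1.78 ± 0.11, but its 3 probes had means of 0.11 to 5.02 and the probe with values on most arrays gave 0.21, which was not called. Fkbp1b, which binds the release channel, averaged -1.78 with animals from -3.21 to 1.65 and was not called over 2-fold. Of 20 tested ion channels and connexins, 13 were over 2-fold above, none was over 2-fold below, and the median was 3.52. Kcnj8, the pore of the vascular ATP-sensitive potassium channel, averaged 5.90 ± 0.17, Kcnj5, a subunit of the acetylcholine-gated channel, 5.43 ± 0.16, Kcnd2, a channel of the transient outward current, 5.34 ± 0.29 and Kcnh2, the channel of the rapid delayed rectifier, 4.84 ± 0.15.

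Cardiac regulators and signalling genes were divided between called and uncalled members. Of 17 tested transcription factors and regulators of heart muscle, 9 were over 2-fold above the reference, beside 8.88% of all tested genes. The list median was 2.29. Rxrg, a retinoid X receptor, averaged 5.52 ± 0.33, Myocd, the coactivator of serum response factor, 5.35 ± 0.22, and Nkx2-5, the homeobox factor of heart formation, 4.79 ± 0.17. Of 13 tested genes of adrenergic and cAMP signalling, 6 were over 2-fold above. Akap6, which anchors protein kinase A at the nuclear envelope of myocytes, averaged 5.86 ± 0.24, Adcy5, a cardiac adenylate cyclase, 5.64 ± 0.15, Adra1d, an alpha1 adrenergic receptor, 5.01 ± 0.18 and Adrb1, the beta1 adrenergic receptor, 2.80 ± 0.13. The 2 probes of Adrb1 lay at 1.15 and 4.45. Of 9 tested genes of natriuretic peptides and related hormones, 3 were over 2-fold above. Corin, the protease that activates the atrial peptide, averaged 4.65 ± 0.23. Nppa, the atrial natriuretic peptide, ranged from 2.66 to 4.48 with a median of 4.14 and passed the test (treat adjusted p = 0.000104). Nppb, the B-type peptide, ranged from -0.29 to 2.11 with a median of 1.50, did not pass it (treat adjusted p = 0.633), and was above the reference in 5 of 6 animals, animal 5 being the low one. Without animal 5 it averaged 1.62 and passed (limma treat adjusted p = 0.0353).

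Energy metabolism was the broadest group above the reference. Of 31 tested subunits of complex I of the respiratory chain, 27 were over 2-fold above, of 26 in complexes II to IV with cytochrome c 20, of 16 in the ATP synthase 15, of 23 in the tricarboxylic acid cycle 19, and of 30 in fatty acid uptake and oxidation 27. None of these genes was over 2-fold below, where 8.88% of all tested genes were called above and 7.73% below. Their list medians were 2.58, 2.47, 2.70, 2.31 and 3.00, and the lowest median over a list in any of the animals was 1.83. In complex I the highest means were those of Ndufs4 (3.91 ± 0.37) and Ndufv3 (3.69 ± 0.11). The cytochrome c oxidase subunits Cox6a2 and Cox8b, which are forms of heart and skeletal muscle, stood apart from the other respiratory subunits. Cox6a2 ranged from 5.64 to 6.26 with a median of 6.12, and Cox8b from 5.21 to 6.75 with a median of 5.49. In fatty acid oxidation, Acsl6, an acyl-CoA synthetase, averaged 4.69 ± 0.28, Fabp3, the fatty acid binding protein of heart, 4.10 ± 0.16, Cpt2, the inner carnitine palmitoyltransferase, 4.07 ± 0.34, Lpl, lipoprotein lipase, 3.97 ± 0.15 and Cd36, the fatty acid translocase, 2.78 ± 0.23. In the tricarboxylic acid cycle, the mitochondrial isocitrate dehydrogenases Idh2 and Idh3g averaged 3.38 ± 0.18 and 3.21 ± 0.16.

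The machinery that maintains mitochondria was above the reference by less. Of 44 tested mitochondrial ribosomal proteins, 13 were over 2-fold above, beside 8.88% of all tested genes. By the test against 0, 36 were above the reference, beside 25.3% of all tested genes, and the list median was 1.19. Mrps16 led them with 2.67 ± 0.19. Of 18 regulators of mitochondrial biogenesis, 8 were over 2-fold above, with a list median of 0.72. Ppargc1a, the coactivator PGC-1 alpha, averaged 5.06 ± 0.42 over the 4 animals with a value, from 3.72 to 6.26. Perm1, a muscle regulator that acts with it, ranged from 2.22 to 4.50 with a median of 3.94, and animal 3 was the low one. Of 17 antioxidant and oxygen carrier genes, 6 were over 2-fold above, led by Mb, myoglobin, with animals from 2.09 to 5.46 and a median of 4.72. Of 8 creatine and phosphotransfer genes 4 were over 2-fold above, among them Ckmt2, the mitochondrial creatine kinase of striated muscle (4.26 ± 0.37), and Ckm, the cytosolic muscle form (4.09 ± 0.17).

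**Figure D2:**
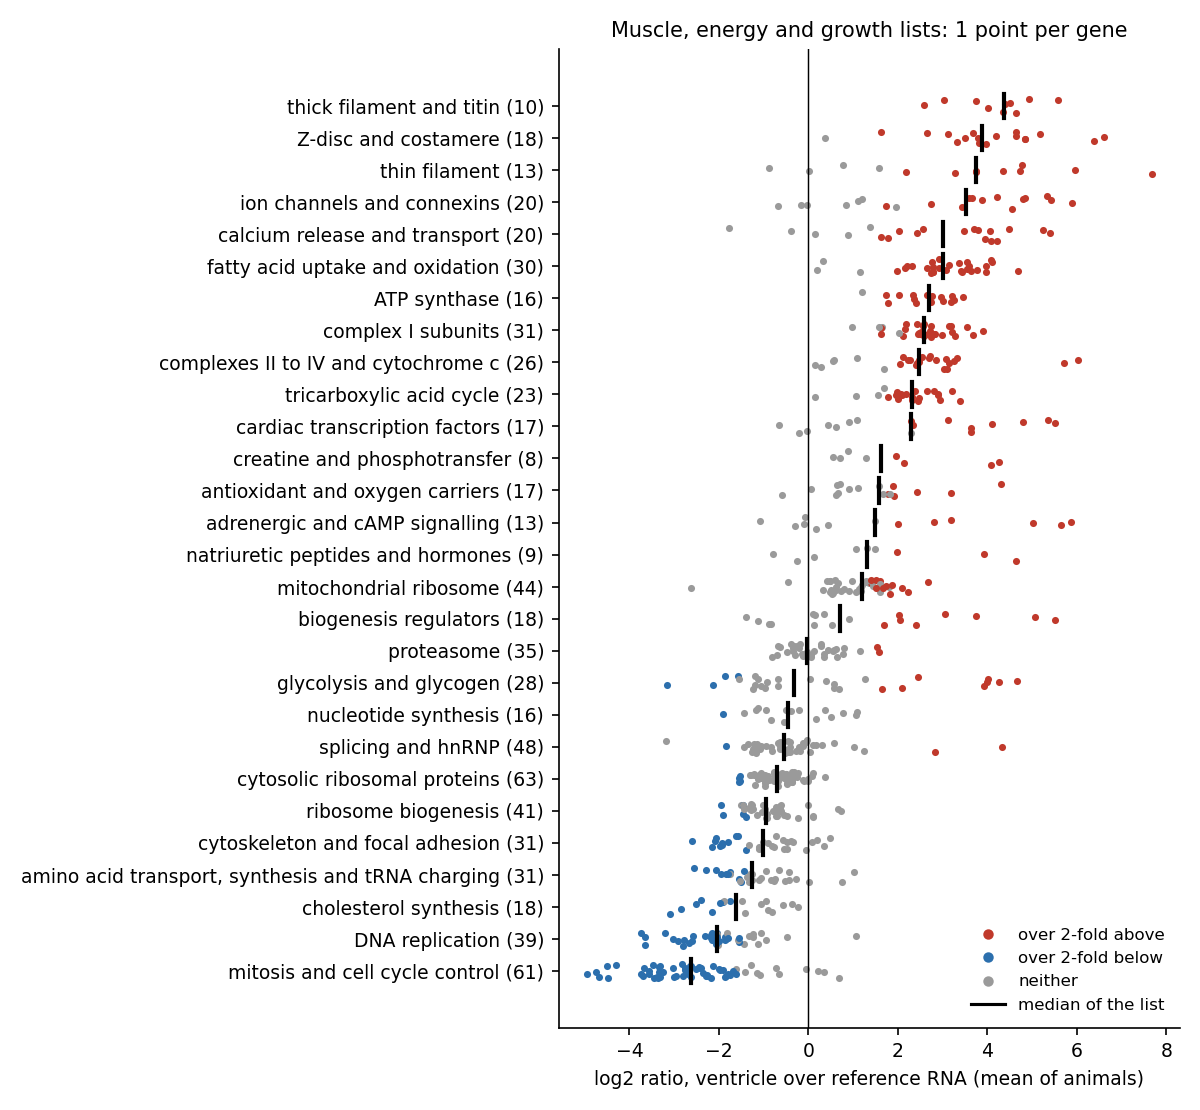
Mean log2 ratio of ventricle over reference RNA (horizontal axis) for each tested gene of the muscle, energy and growth lists, with the number of tested genes in brackets, the median of each list as a bar, and colours for genes over 2-fold above, over 2-fold below or neither. List medians run from 4.36 for the thick filament to -2.62 for mitosis and cell cycle control.

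Glycolysis divided by isoform rather than moving as a group. Of 28 tested genes of glycolysis and glycogen, 8 (28.6%) were over 2-fold above the reference and 4 (14.3%) over 2-fold below, beside 8.88% and 7.73% of all tested genes. The list median was -0.33, and it lay between 0.04 and 0.08 without animal 1, 5 or 6. Ldhb, the lactate dehydrogenase subunit of heart, ranged from 4.13 to 5.02 with a median of 4.77, while Ldha ranged from -1.89 to -0.78 with a median of -0.95. Pfkm, muscle phosphofructokinase, averaged 4.02 ± 0.12 and the platelet form Pfkp -1.06 ± 0.20. Pygm, muscle glycogen phosphorylase, averaged 3.99 ± 0.25, and Pygl, the liver form, -3.15 ± 0.23. Slc2a4, the insulin-responsive glucose transporter, averaged 4.26 ± 0.18, and Slc2a1, the transporter of most cultured cells, -1.86 ± 0.12.

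The same contrast was examined in 32 pairs of a striated muscle or heart form and a form of broader or other tissues. Both genes were tested in 29 pairs, and the ratio of the muscle form was the higher one in 27 of them, with a median difference of 4.74 between the paired log2 ratios. In those 27 pairs the muscle form was over 2-fold above the reference, where 8.88% of all tested genes were. With the probe on most arrays in place of the mean of probes, Tpm1 (-1.48) fell below its partner Tpm4 (-0.99), and Atp2a2 (0.21) and Eno3 (1.84) were not called. The other form was over 2-fold above in 1 pair, the creatine kinases, with 4.09 for Ckm and 1.96 for Ckb. It was over 2-fold below in 5 pairs, those of Pgam1, Pygl, Slc2a1, Eef1a1 and Rpl3. Protein synthesis was among the functions divided in this way. Eef1a2, the translation elongation factor of muscle and neurons, averaged 3.71 ± 0.21, and the general form Eef1a1 -1.71 ± 0.20. Rpl3l, the striated muscle paralogue of a ribosomal protein, averaged 3.77 ± 0.20, and Rpl3 itself -1.52 ± 0.16. The calls of Eef1a1, Rpl3 and Pgam1 were lost when any of several animals was left out. Among the structural proteins, Actb, the cytoplasmic actin, averaged -0.04 ± 0.18 beside 3.75 for Actc1, and Actn4, the cytoskeletal alpha actinin, -0.04 ± 0.15 beside 4.85 for Actn2. Myl9, the regulatory light chain of smooth muscle and other cells, was above the reference by less than 2-fold, at 0.85 ± 0.25 beside 5.59 for Myl2. Both exceptions ran the other way. Hk2, the hexokinase of insulin-sensitive muscle, averaged -1.23 ± 0.30 beside 1.28 ± 0.19 for Hk1, and Fkbp1b averaged -1.78 ± 0.63 beside 0.17 ± 0.20 for Fkbp1a. None of these 4 genes was called over 2-fold with all animals, but without animal 6 Fkbp1b averaged -2.47 and was called (limma treat adjusted p = 0.0125). Paralogues share sequence and the probe sequences were not used here, so hybridisation of one form to the other's probe was not tested.

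**Figure D3:**
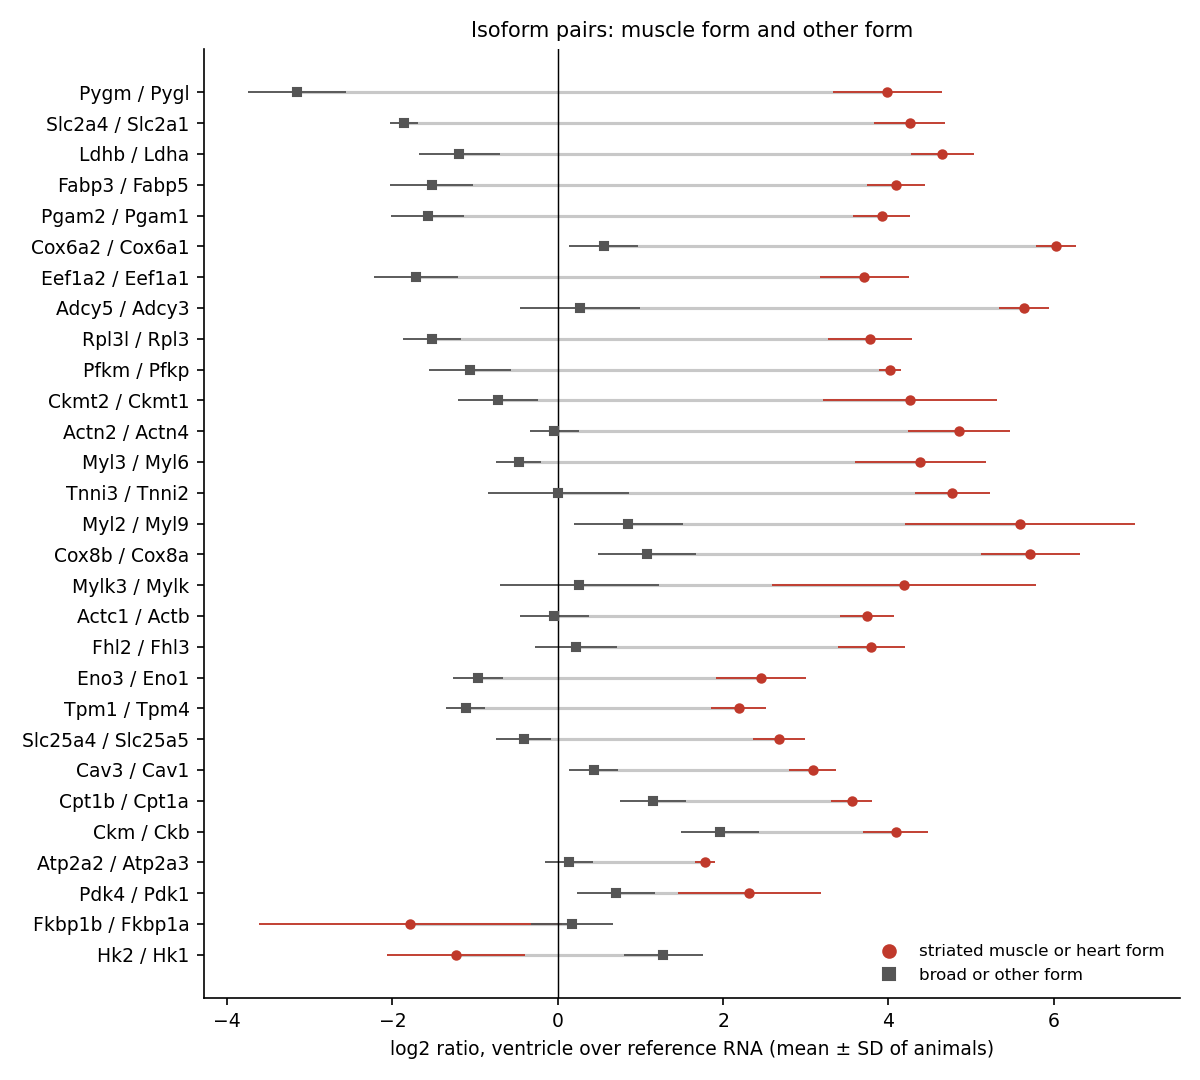
Mean log2 ratio of ventricle over reference RNA with its SD between animals (horizontal axis) for the muscle form (circle) and the other form (square) of the 29 pairs with both genes tested, ordered by their difference. The muscle form lies to the right in 27 pairs, and the pairs of Hk2 and Fkbp1b run the other way.

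Genes of cell division were the counterpart below the reference. Of 61 tested genes of mitosis and cell cycle control, 50 were over 2-fold below and none above, with a median of -2.62. Of 39 tested genes of DNA replication, 26 were over 2-fold below and none above, with a median of -2.03. These shares stand beside 7.73% of all tested genes called over 2-fold below. Mki67, the proliferation antigen Ki-67, ranged from -3.61 to -2.93 with a median of -3.24, and Top2a, the topoisomerase of dividing cells, from -3.05 to -2.55 with a median of -2.75. The animals hardly differed for these genes. Among the replication genes, Cdc6, which loads the replicative helicase, averaged -3.74 ± 0.23 over 4 animals, Rrm2, the ribonucleotide reductase subunit of S phase, -3.65 ± 0.17, Pole2, a DNA polymerase epsilon subunit, -3.65 ± 0.31 and Uhrf1, which maintains DNA methylation at the fork, -3.21 ± 0.33. Mcm5, a subunit of the helicase, averaged -2.02 over 5 animals with 1 animal at -3.90, and was not called over 2-fold (treat adjusted p = 0.119).

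Elements of cell cycle genes were searched for in the promoters of both lists. In the 250 bases before the start, the CCAAT box (CCAAT, bound by the factor NF-Y) was found on either strand in 72.5% of 51 matched promoters of the mitosis list, in 40.0% of those of genes over 2-fold below the reference and in 35.5% of those of all tested genes. The cell cycle homology region (CHR, TTTGAA), through which the DREAM complex represses cell cycle genes in resting cells, was found in 45.1%, 16.1% and 12.2%. In the 34 matched promoters of the DNA replication list the shares were 55.9% for the CCAAT box and 11.8% for the CHR element, the second no higher than among all tested genes. The shares of the whole set of genes below the reference thus lay nearer to those of all tested genes than the shares of the mitosis list did. Among genes over 2-fold above, the shares were 38.1% for the CCAAT box and 11.3% for the CHR element. Of the same 34 promoters, 20.6% held an E2F site (TTTGGCGC, TTTCCCGC or TTTCGCGC), against 2.46% of those of all tested genes. The promoters of Aspm, Ect2 and Top2a are shown because each holds both a CCAAT box and a CHR element, in capitals on whichever strand they lie, so that a CCAAT box may read ATTGG and a CHR element TTCAAA. Aspm lies at chr13:53625334-53625583 on the plus strand, Ect2 at chr2:111966627-111966876 on the minus strand and Top2a at chr10:84473094-84473343 on the minus strand, each given in GRCr8 and 5′ to 3′.
Aspm: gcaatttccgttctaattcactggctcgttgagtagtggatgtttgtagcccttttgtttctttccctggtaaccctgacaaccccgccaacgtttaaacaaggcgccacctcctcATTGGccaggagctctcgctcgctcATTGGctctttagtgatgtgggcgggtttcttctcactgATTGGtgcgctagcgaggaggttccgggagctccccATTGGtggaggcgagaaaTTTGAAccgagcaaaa
Ect2: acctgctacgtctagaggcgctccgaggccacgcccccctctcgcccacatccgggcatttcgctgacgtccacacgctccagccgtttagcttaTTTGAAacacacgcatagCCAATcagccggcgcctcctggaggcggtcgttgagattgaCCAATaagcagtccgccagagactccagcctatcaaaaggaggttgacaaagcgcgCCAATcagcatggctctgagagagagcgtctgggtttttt
Top2a: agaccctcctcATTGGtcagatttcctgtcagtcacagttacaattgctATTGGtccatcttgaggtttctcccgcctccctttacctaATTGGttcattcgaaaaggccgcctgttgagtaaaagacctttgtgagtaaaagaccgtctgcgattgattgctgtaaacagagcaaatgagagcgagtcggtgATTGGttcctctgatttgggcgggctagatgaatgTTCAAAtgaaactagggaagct
Aspm and Top2a hold 5 matches each and Ect2 holds 4.

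A total of 8 motifs were searched. The TATA box (TATAAA) was found in 18.2% of sarcomere promoters, 1.96% of mitosis promoters and 9.32% of those of all tested genes, and a MEF2 match can contain it. An NRF1 site, for a factor of nuclear genes of mitochondria, was found in 7.69% of the 65 matched promoters of respiratory chain and ATP synthase genes, against 3.71% of all. An extended ERR element (TCAAGGTCA or TGAAGGTCA), for the oestrogen-related receptors of energy metabolism, was found in 1.54% of the same 65 promoters, which is 1 promoter, against 0.314% of all. The lists and motifs were chosen with the results in view, and these shares are descriptions with no test.

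**Figure D4:**
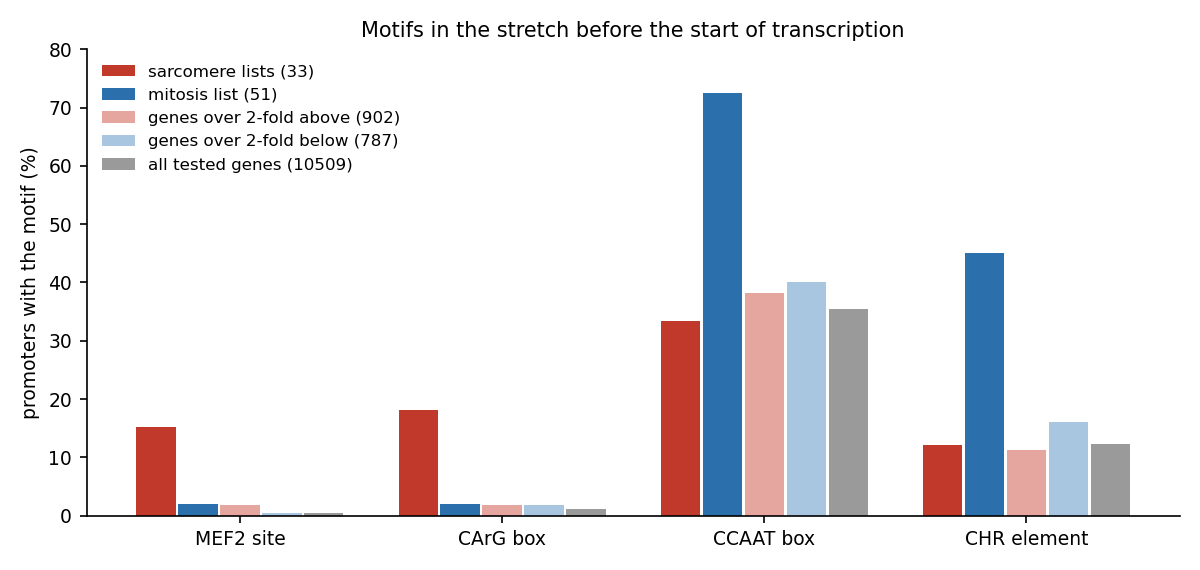
Share of promoters (vertical axis, percent, from 0) that hold each of 4 motifs in the 250 bases before the start, for the sarcomere lists, the mitosis list, genes over 2-fold above, genes over 2-fold below and all tested genes, with the number of matched promoters in brackets. MEF2 sites and CArG boxes were found in 15.2% and 18.2% of sarcomere promoters, CCAAT boxes and CHR elements in 72.5% and 45.1% of mitosis promoters.

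The lists of biosynthesis for growth differed in how many genes were called. Of 18 tested genes of cholesterol synthesis, 8 were over 2-fold below and none above, with a median of -1.62 and every member's mean below 0. Sqle, squalene epoxidase, ranged from -3.30 to -2.85 with a median of -3.07, Idi1, isopentenyl diphosphate isomerase, averaged -2.86 ± 0.16 and Tm7sf2, a sterol reductase, -2.41 ± 0.13. Of 31 genes of amino acid transport, synthesis and tRNA charging, 10 were over 2-fold below, with a median of -1.26. Mthfd2, the mitochondrial folate enzyme of dividing cells, averaged -2.55 ± 0.15 and Asns, asparagine synthetase, -2.29 ± 0.16. Of 41 genes of ribosome biogenesis, 5 were over 2-fold below and 34 below by the test against 0, with a median of -0.96. Of 63 cytosolic ribosomal proteins, 4 were over 2-fold below (6.35%, against 7.73% of all tested genes) and 45 below by the test against 0 (28.5% of all tested genes), with a median of -0.70. The 4 were Rplp0, Rpsa, Rpl30 and Rpl3, with means from -1.56 to -1.52. None of the 4 was called after the housekeeping shift, with means from -1.23 to -1.19. With the arrays aligned on the control probes their means were further below 0, from -1.89 to -1.84, and none was called either. Nucleotide synthesis had 1 of 16 genes over 2-fold below (6.25%), a share near that of all tested genes, and this was Adss2 of AMP synthesis at -1.91 ± 0.23. Of 35 proteasome genes 2 were over 2-fold above (5.71%, against 8.88% of all tested genes), the activator subunit Psme1 and the ATPase Psmc5. Neither was called with the arrays aligned on the control probes, and the list median was -0.02.

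The cytoskeleton and RNA splicing differed in how many genes were called. Of 31 genes of cytoskeleton and focal adhesion, 11 were over 2-fold below the reference and none above, with a median of -1.01. Cd44, the hyaluronan receptor, averaged -2.59 ± 0.18, S100a4, a calcium-binding protein of motile cells, -2.14 ± 0.15 and Anxa2, annexin A2, -2.06 ± 0.16. Vim, vimentin, averaged -1.11 ± 0.16 and was not called over 2-fold. Of 48 splicing factors and hnRNPs, 2 were over 2-fold above and 1 over 2-fold below, which are lower shares than among all tested genes, while 5 were above and 26 below by the test against 0. Rbm24, which directs splicing in heart muscle, ranged from 3.37 to 5.28 with a median of 4.29, and Rbfox1, a splicing factor of heart, muscle and brain, from 1.60 to 3.70 with a median of 3.00. The member below was Sf3a3, a subunit of the U2 particle, at -1.84 ± 0.17. The genes often taken as invariant were not uniform. Of 22 tested housekeeping genes, 4 were over 2-fold below: Ppia (-2.22 ± 0.12), Gusb (-2.20 ± 0.12), Ywhaz (-1.70 ± 0.21) and Rplp0 (-1.56 ± 0.13). The call of Ywhaz was lost without animal 1, 2, 3, 5 or 6. The list median was -0.27.

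The label of the tissue was checked against markers of the cells it can hold. Of the genes described above, Myh6, Myh7, Tnni3, Tnnt2, Actc1, Ryr2 and Pln served as the cardiomyocyte markers and all were over 2-fold above the reference, while the myocyte genes Nppb and Fkbp1b were not. Endothelial genes were the most uniform of the other cell types, with 21 of 25 over 2-fold above, 1 below and a median of 2.91. Of all tested genes, 8.88% were over 2-fold above and 7.73% over 2-fold below. Kdr, the VEGF receptor of capillaries, ranged from 5.41 to 7.85 with a median of 6.04. Nos3, endothelial nitric oxide synthase, averaged 5.29 ± 0.16 and Vwf, von Willebrand factor, 5.18 ± 0.12. Erg, an endothelial transcription factor, averaged 5.47 ± 0.38 over 5 animals. Pecam1, the adhesion molecule CD31, averaged 2.34 ± 0.30 with probes at 0.79 and 3.39. The member below was Ramp3, a partner of the adrenomedullin receptor, at -1.64 ± 0.12. Among smooth muscle and pericyte markers 6 of 12 were over 2-fold above, with a median of 1.66. The mean was above 0 for 9 of them and below 0 for 3, of which 1 was below the reference by the test against 0. Rgs5 of pericytes averaged 4.28 ± 0.12, and Kcnj8, Des and Casq2 of that list are also cardiac or shared genes.

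Fibroblast and matrix genes split. Of 27 tested, 11 (40.7%) were over 2-fold above the reference and 5 (18.5%) over 2-fold below, beside 8.88% and 7.73% of all tested genes. The list median was 0.58. Tcf21, the transcription factor of cardiac fibroblasts, had animals from 1.78 to 5.88 with a median of 4.81, Col15a1 of the vascular and muscle basement membrane averaged 3.52 ± 0.14, Gsn, gelsolin, 3.43 ± 0.18 and Dcn, the small proteoglycan decorin, 2.50 ± 0.25. Below the reference stood Fn1, fibronectin, at -2.88 ± 0.17, and Lox, which crosslinks collagen, at -2.75 ± 0.20. The fibrillar collagens were near or below 0, with 0.22 ± 0.11 for Col3a1 and -1.17 ± 0.14 for Col1a1, and neither was called over 2-fold. The 3 probes of Col1a1 had means from -1.91 to -0.74, and the one with values on most arrays, at -1.91, was called over 2-fold below (limma treat adjusted p = 0.015).

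Macrophage markers lay on both sides of 0, and lymphocyte and mast cell markers mostly below it. Of 21 macrophage and monocyte genes, 7 (33.3%) were over 2-fold above, where 8.88% of all tested genes were. Another 2 (9.52%) were over 2-fold below, a share near the 7.73% of all tested genes. A mean above 0 was found for 11 and below 0 for 10, and the list median of 0.81 was 0.13 to 0.49 without animal 1, 3, 4 or 5. Lyve1, a receptor of resident macrophages and of lymphatic vessels, averaged 5.36 ± 0.45 over 5 animals, and the complement genes C1qa and C1qb averaged 4.90 ± 0.21 and 4.07 ± 0.12. Fcgr3a, an Fc receptor, and Cybb, the oxidase subunit of phagocytes, were over 2-fold below, at -2.71 ± 0.20 and -1.91 ± 0.16. Cd68, a lysosomal marker, averaged -0.66 ± 0.23, with animal 1 at 0.47. None of 18 lymphocyte and mast cell markers was over 2-fold above and 8 (44.4%) were over 2-fold below, with a median of -1.66. Gzmb, granzyme B, averaged -3.55 ± 0.24, Cd3e and Cd3g of the T cell receptor complex -3.48 ± 0.27 and -3.28 ± 0.15, and Mcpt1, a mast cell protease, -3.38 ± 0.38.

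Genes of antigen presentation and interferon response included 10 of 23 over 2-fold above the reference and none below, beside 8.88% and 7.73% of all tested genes. The class II genes RT1-Da, RT1-Bb and RT1-Ba averaged 4.32 ± 0.16, 3.84 ± 0.30 (5 animals) and 3.76 ± 0.40, and their chaperone Cd74 3.42 ± 0.26. Mx2, an interferon-induced gene, averaged 3.93 ± 0.38 over 5 animals. RT1-Bb rests on 2 of its 4 probes, and C1qb and Mx2 on 1 of 2 each. In complement and coagulation 9 of 22 (40.9%) were over 2-fold above and 2 (9.09%) below, the second a share near that of all tested genes. C6, a component of the membrane attack complex, ranged from 3.16 to 7.18 with a median of 5.53, and Cd55, which protects cells from complement, averaged -2.64 ± 0.31.

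**Figure D5:**
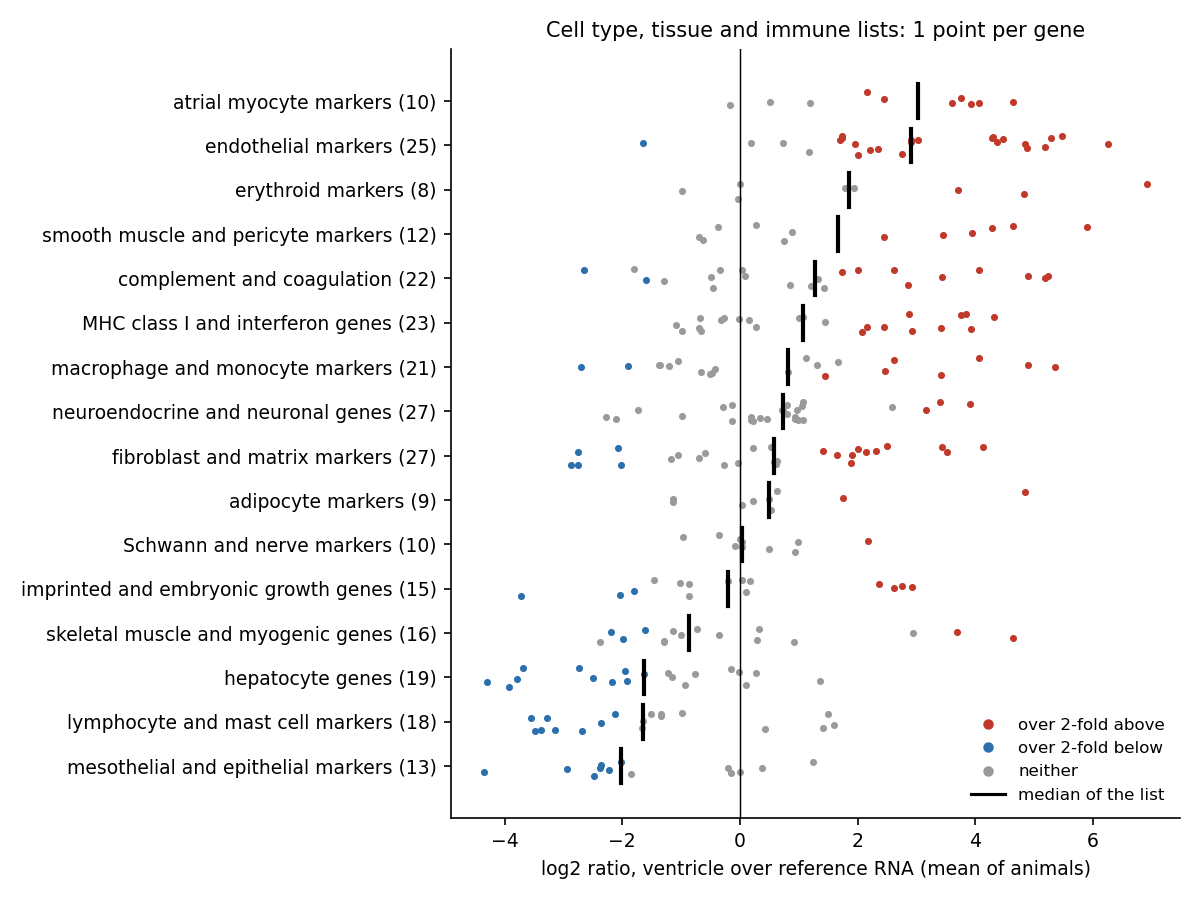
Mean log2 ratio of ventricle over reference RNA (horizontal axis) for each tested gene of the lists of cell types, other tissues and immune genes, with the number of tested genes in brackets, list medians as bars and colours as for the muscle lists. Atrial and endothelial lists have the highest medians (3.03 and 2.91) and the mesothelial and epithelial list the lowest (-2.02).

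Markers of tissues other than ventricle gave values on both sides. Of 10 atrial myocyte markers 7 were over 2-fold above the reference, with a median of 3.03: Myl7, the atrial regulatory light chain, averaged 4.64 ± 0.21, Sln, sarcolipin, 4.07 ± 0.20 and Myl4, the atrial essential light chain, 3.75 ± 0.46. Their level against an atrium was not measured, and a share of atrial tissue in the samples was not tested. Erythroid genes had 3 of 8 over 2-fold above, Hbb, the globin Hbb-b1 (4.84 ± 0.13) and Alas2 of haem synthesis (3.70 ± 0.20). The erythroid list was not uniform, with 5 means above 0 and 3 below, the lowest at -0.99. Of those below, 1 was called by the test against 0. The list median ran from 0.90 to 3.66 over the animals. Of 9 adipocyte markers 2 were over 2-fold above, Fabp4, which capillary endothelium also expresses, at 4.85 ± 0.16 and Lipe, hormone-sensitive lipase, at 1.75 ± 0.17. The 2 probes of Lipe lay at 0.54 and 2.96, and its call was lost with the arrays aligned on the control probes. Of 10 Schwann and nerve markers 1 was called, Gfra3, a receptor of neurotrophic factors, at 2.18 ± 0.30. The call of Gfra3 was lost without animal 1, and with values in all 6 animals, where it averaged 1.56. The share of 1 in 10 is near the 8.88% of all tested genes, as is that of the neuroendocrine and neuronal list. Among its 27 genes 3 were over 2-fold above, Gap43 of growing axons, Pomc, the hormone precursor, and Scg3, a granin. Gap43 ranged from 2.75 to 7.66 and Scg3 from 1.56 to 6.83, with animal 6 the highest in both and the other animals at or below 3.49 and 3.04. The call of Scg3 was lost without animal 1, 2 or 5. Pomc was even across animals, from 3.06 to 3.82.

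Epithelial and liver genes were mostly below the reference. The mean was below 0 for 11 mesothelial and epithelial markers and above 0 for 2. It was below 0 for 16 hepatocyte genes and above 0 for 3. Of all tested genes, 8.88% were over 2-fold above and 7.73% over 2-fold below. Of 13 mesothelial and epithelial markers 7 were over 2-fold below and none above, led by Epcam, the epithelial adhesion molecule, with animals from -5.16 to -3.70 and a median of -4.17, and Cdh1, E-cadherin, at -2.94 ± 0.18. Of 19 hepatocyte genes 10 were over 2-fold below and none above, with Foxa2, a liver and endoderm transcription factor, from -4.65 to -3.73 with a median of -4.41, Fgg, the fibrinogen gamma chain, at -3.92 ± 0.21 over 5 animals, Alb, albumin, at -3.79 ± 0.23 and Afp, alpha-fetoprotein, at -3.68 ± 0.27 over 4 animals. Genes of skeletal muscle and of myogenic cells were not shared alike: Des and Casq1 (3.70 ± 0.18) were over 2-fold above, while the myogenic factors Myog (-1.62 ± 0.18) and Myf5 (-1.99 ± 0.23, 5 animals) and the fetal acetylcholine receptor subunit Chrng (-2.19 ± 0.22) were over 2-fold below. The call of Myog was lost without animal 1, 3, 5 or 6, and that of Myf5 without animal 1 or 3. The list of imprinted and embryonic growth genes also had members on both sides of the reference. Igf2, insulin-like growth factor 2, ranged from 2.27 to 3.81 with a median of 2.60, the noncoding H19 averaged 2.62 ± 0.30, Cdkn1c, a cell cycle inhibitor, 2.92 ± 0.19 and Ndn, necdin, 2.37 ± 0.35. Igf2bp2, an mRNA-binding protein of fetal growth, averaged -3.71 ± 0.15 and Hmga2, a chromatin protein of embryonic cells, -2.04 ± 0.23 over 5 animals.

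The same ratios were available for the other groups of the series, which share the reference RNA and were measured on other arrays. They are given as values without a test, for genes named by their level in the Normal animals. Ryr2 averaged 5.40 ± 0.64 in Normal animals (SD, n = 6), against 1.06 ± 1.89 in Hypoxia animals with a value (n = 4), 5.30 ± 0.96 in SuHx and 3.78 ± 1.63 in SuHx with carvedilol (n = 6 each). Myoc averaged 6.83 ± 1.58 in Normal animals (n = 6), against 5.22 ± 0.85 in Hypoxia (n = 5), 2.70 ± 0.88 in SuHx (n = 4) and 1.97 ± 1.51 in SuHx with carvedilol (n = 5). Gcgr averaged 6.56 ± 0.75 in Normal animals (n = 6), against 4.45 ± 1.39 in Hypoxia (n = 6), 4.46 ± 1.15 in SuHx (n = 6) and 2.76 ± 1.02 in SuHx with carvedilol (n = 5). The natriuretic peptide Nppb ran the other way, with 1.30 ± 0.83 in Normal animals, against 2.76 ± 0.68 in Hypoxia, 4.06 ± 0.77 in SuHx and 4.30 ± 0.29 in SuHx with carvedilol (n = 6 each). Myh7 averaged 2.59 ± 0.48 in Normal animals, against 3.31 ± 0.59, 3.84 ± 0.30 and 5.50 ± 1.26 in the same 3 groups. Medians of some lists are given for the same groups. The median of the fatty acid list was 3.00 in Normal animals, against 2.60 in Hypoxia, 2.37 in SuHx and 2.13 in SuHx with carvedilol, and that of the mitosis list -2.62, against -2.09, -2.35 and -2.74. The median of adrenergic and cAMP signalling was 1.50 in Normal animals, against 0.44, 0.91 and -0.05. That of glycolysis and glycogen was -0.33 in Normal animals, against -1.16, 0.28 and -0.34, and the Normal value was 0.04 to 0.08 without animal 1, 5 or 6. In single Normal animals the fatty acid median ran from 2.39 to 3.56 and the mitosis median from -2.90 to -2.13. The adrenergic median ran from 0.11 to 1.88 and that of glycolysis from -0.26 to 0.55. Several values of the other groups lay within these ranges. The median of all tested genes was -0.07 in Normal animals, against -0.32 in Hypoxia, -0.08 in SuHx and -0.27 in SuHx with carvedilol. Probes were kept by their values in the Normal animals only, in every group.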

How the data were processed

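Right ventricle RNA and reference RNA were labelled with Cy5 and Cy3 and hybridised to Agilent whole rat genome arrays. Per the series' design text, the authors scanned them with GenePix Pro 5.0 and applied a lowess normalisation within arrays (marray), and deposited log2 ratios of ventricle over reference. The handling of local background and of empty spots is not given in the sources used here. One deposited table names log10 in its title, but it holds the same values as the other table, from -13.6 to 14.0, and both were read as log2 from that span and from the control probes. A log10 reading would make every fold larger.

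Spots were matched to probes by identical values, and 23292 probes with 1 gene gave 14861 genes. The arrays of an animal were averaged, then the probes of a gene, and genes with values in at least 4 animals were kept. The fit drops animals without a value. Mean ratios were tested against 0 with limma 3.58.1 in R 4.3.3 (lmFit, eBayes) and against a 2-fold bound with treat, with Benjamini-Hochberg adjustment over all genes at 0.05. The replicates are separate animals. The fit was tested on simulated data with known ratios. Named genes were the 12 highest and 12 lowest called means with all 6 animals on one side of 0, leaving out placeholder symbols, up to 4 called members of each list in its main direction and up to 2 in the other, both genes of each isoform pair, and a panel of marker genes. A selection of these is printed. The members, gene lists and motifs were chosen with earlier results of these data known. Promoters came from RefSeq's GRCr8 table. The number of arrays limits the precision. Other scalings, filters, probe choices and variance models were tried, as was leaving out each animal.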

Additional observations from a re-analysis of the deposited data

Results flagged for a closer look

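Among the 243 named genes, 29 (11.9%) had 1 animal far from the others, with a gap to the nearest animal beyond Dixon's critical value for its number of animals. Chance alone flags about 1 in 20 groups. Over all 10319 genes with 6 animals the share was 9.52%, and of the 29 named genes 23 were called over 2-fold all the same.

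Animal 6 was the one apart in 15 of the 29 genes, including the sarcomere genes Lmod2, Myl2 and Myl3 and the myosin light chain kinase Mylk3. Animal 6 was the highest for Cdh1 (-2.08, others -3.23 to -2.94), Ckmt2 (6.36, others 3.58 to 4.26), Fkbp1b (1.65, others -3.21 to -1.49), Gap43 (7.66, others 2.75 to 3.49), Lmod2 (9.30, others 6.65 to 7.62), Myl2 (8.38, others 4.82 to 5.60), Myl3 (5.92, others 3.78 to 4.51), Mylk3 (7.42, others 3.30 to 3.93), Ndn (4.24, others 1.29 to 2.38), Rxrg (7.35, others 4.90 to 5.49) and Scg3 (6.83, others 1.56 to 3.04). It was the lowest for Fhl3 (-0.78, others 0.27 to 0.51), Mcm5 (-3.90, others -1.84 to -1.14), Mcpt1 (-5.49, others -3.53 to -2.65) and Mrpl47 (0.80, others 1.81 to 2.38). Its part in the means was not tested beyond leaving the animal out.

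Animal 4 was apart in 7 genes. Animal 4 was the highest for Asns (-1.63, others -2.57 to -2.25), Fabp4 (5.50, others 4.56 to 4.83), Igf2 (3.81, others 2.27 to 2.76), Mybpc3 (5.41, others 4.69 to 4.96) and Pygl (-1.97, others -3.59 to -3.23). It was the lowest for Hk2 (-2.80, others -1.23 to -0.32) and Ryr2 (4.18, others 5.30 to 5.93). Animals 1, 2 and 3 were apart in 2 genes each and animal 5 in 1. Animal 1 was the highest for Cd68 (0.47, others -1.27 to -0.63). It was the lowest for Chrng (-3.28, others -2.18 to -1.64). Animal 2 was the lowest for Kif20b (-7.68, others -4.31 to -3.39) and Mmp13 (-8.97, others -4.56 to -3.39). Animal 3 was the lowest for Perm1 (2.22, others 3.72 to 4.50) and Rpsa (-1.83, others -1.56 to -1.45). Animal 5 was the lowest for Nppb (-0.29, others 1.29 to 2.11).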

How the results depend on the processing

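The number of genes over 2-fold above the reference (1129) fell to 620, and the number above it (3216) to 1364, when arrays were aligned on the control probes, an alternative chosen after seeing the data. The number over 2-fold below (983) was 637 after the housekeeping shift and 615 with the spread taken from all 24 animals. Both scalings shift each array by its own amount, so they move the zero and can also change the spread between animals. After the control alignment Rpl3 lay lower, at -1.85, yet lost its call (limma treat adjusted p = 0.154). Eef1a1 did likewise at -2.04 (limma treat adjusted p = 0.0727). The parts of zero and spread in these counts were not tested, nor was the cause for the shared spread. Without each animal in turn, the counts ranged from 2849 to 3141 above, 3213 to 3471 below, 1025 to 1117 over 2-fold above and 824 to 946 over 2-fold below. List medians near 0 changed sign. The list of imprinted and embryonic growth genes (-0.20) gave 0.15 after the housekeeping shift and 0.092 with values in all 6 animals. It gave 0.037 with probes on one side of 0, and from -0.82 to 0.033 without each animal in turn. The housekeeping list (-0.27) gave 0.064 after its own shift, the skeletal list (-0.86) 0.29 with values in all 6 animals, and the fibroblast list (0.58) -0.014 with the probe on most arrays, where Tpm1 gave -1.48. For these lists and Tpm1 the cause was not tested beyond the change of probes, genes or animals. Of 5057 results for named genes over all alternatives, 4876 kept their side of the 2-fold test, 173 lost the call, 7 gained it and 1, Tpm1, reversed. A change of sign was counted as a reversal only for a gene called over 2-fold in either fit. Uncalled genes near 0 also changed sign, such as Actb (-0.37 to 0.29) and Fkbp1a (-0.44 to 0.51). Leaving out the 2 animals with the highest control probes, also chosen after seeing the data, went with a minimum of 3 animals per probe, so that further probes could enter a mean, and both choices changed at once. No paired analysis was possible because each Normal animal was compared with the same reference RNA and no second group entered the tests. Ratios near background cannot be recognised, since the deposited tables hold no intensities.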
